A study of Mus musculus with 6 samples.

Results

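Cytochrome P450 genes of the ileum were described here as the rows of the deposited ileum RNA-seq table whose gene symbol starts with Cyp and a digit. The rule found 11 of the 923 listed genes: Cyp3a11, Cyp3a44, Cyp3a25, Cyp2c55, Cyp2e1, Cyp2s1, Cyp2u1, Cyp2ab1, Cyp4b1, Cyp26b1 and the pseudogene Cyp21a2-ps. Ileum RNA came from 3 Hif1α LSL/LSL;VilERcre mice, called overexpression mice below, and from 3 Hif1α LSL/LSL mice, called flox mice. Both groups are on a C57BL/6 background, are homozygous for the LSL-HIF1 dPA allele, a HIF-1α transgene behind a stop cassette, and received tamoxifen. For this allele the study cites a report on HIF-α that is not prolyl hydroxylated. Only the overexpression mice carry VilERcre, a tamoxifen-activated Cre under the villin promoter, which is active in the intestinal epithelium. By the labels each group holds 2 males (replicates 1 and 2) and 1 female (replicate 3), whereas the study's text on this experiment calls the mice male. The study's methods give an age and diets for its mice of these genotypes, without saying which apply to the sequenced mice. The labels name separate mice, so the spread between libraries is a spread between animals.

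Cytochrome P450 enzymes are heme proteins of the endoplasmic reticulum and mitochondria that insert an oxygen atom into their substrates, with electrons delivered by a reductase. In the small intestine, enzymes of the CYP3A and CYP2C subfamilies in enterocytes oxidize drugs, steroids and food compounds before they reach the liver. Other families act on fatty acids (CYP4B, CYP2U) or retinoic acid (CYP26). HIF-1α, the oxygen-regulated partner of ARNT, is best known for turning on glycolytic genes. ARNT is also the partner of the aryl hydrocarbon receptor, which induces several P450 genes.

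The table holds a gene only if the DESeq2 test of its depositors gave an unadjusted p under 0.05, which was found to be true of all 923. Every cytochrome P450 gene here was therefore selected by its difference between these same 6 libraries, its fold change leans high, and the number of P450 genes that differed cannot be read as a finding. The tests below also estimated the spread of counts between libraries from such selected genes alone, so their p-values may be too small. GENCODE M21, on the same GRCm38 build, annotates 131 genes with such symbols, 100 of them protein coding, and those outside the table were not analysed here. Library totals implied by FPKM ran from 18918341 to 24905343 over the 6 libraries, and deposited size factors from 0.858 to 1.14. Levels are given as normalized counts (counts divided by the size factor of the library) within a gene, and as FPKM, which divides by the deposited gene length, between genes. Hif1a itself had 535, 728 and 741 normalized counts in overexpression ileum, against 741, 1063 and 1185 in flox ileum, a log2 fold change of -0.58 that did not pass (adjusted p = 1 from edgeR). It does not check the genotype, since no source says whether transgene reads were assigned to it. Reads were counted from whole ileum, so fewer cells of a type and less RNA per cell cannot be told apart in any value below.

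The Cyp3a promoters are shown first, since Cyp3a11, Cyp3a44 and Cyp3a25 are direct neighbors whose means were all lower in overexpression ileum, by unequal amounts. All 3 lie on the minus strand of chromosome 5 within 235636 bp that hold no other protein-coding gene, among the 11 Cyp3a genes and pseudogenes annotated on this chromosome. The sequences are RefSeq windows on GRCm38.p6, running from 250 bases before to 50 bases after each RefSeq start, at chr5:145879805-145880104 for Cyp3a11, chr5:145805825-145806124 for Cyp3a44 and chr5:146009569-146009868 for Cyp3a25. Capitals mark AGGTCA and AGTTCA, hexamers that nuclear receptors such as PXR can bind in pairs, and TATAAA, each searched on both strands.
Cyp3a11: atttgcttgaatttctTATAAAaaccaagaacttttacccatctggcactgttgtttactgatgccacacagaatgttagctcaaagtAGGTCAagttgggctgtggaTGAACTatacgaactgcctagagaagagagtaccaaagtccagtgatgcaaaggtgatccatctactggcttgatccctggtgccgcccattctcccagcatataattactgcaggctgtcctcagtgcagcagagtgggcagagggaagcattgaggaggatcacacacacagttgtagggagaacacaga
Cyp3a44: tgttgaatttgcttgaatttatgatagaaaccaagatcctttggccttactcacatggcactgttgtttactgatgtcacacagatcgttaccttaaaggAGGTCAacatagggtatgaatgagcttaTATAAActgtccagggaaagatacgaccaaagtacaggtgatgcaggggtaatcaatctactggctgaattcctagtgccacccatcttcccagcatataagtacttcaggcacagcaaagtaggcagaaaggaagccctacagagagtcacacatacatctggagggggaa
Cyp3a25: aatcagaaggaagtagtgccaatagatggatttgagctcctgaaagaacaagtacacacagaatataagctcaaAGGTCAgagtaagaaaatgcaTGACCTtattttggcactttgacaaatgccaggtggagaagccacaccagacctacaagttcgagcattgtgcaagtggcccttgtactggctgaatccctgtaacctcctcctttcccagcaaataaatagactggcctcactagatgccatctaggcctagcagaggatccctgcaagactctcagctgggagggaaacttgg

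AGGTCA occurs in each of these 3 windows, at −162 in Cyp3a11, at −150 in Cyp3a44 and at −176 in Cyp3a25, counted from the start to the first base of the hexamer. Cyp3a25 has it again on the other strand, as TGACCT, at −155, and RefSeq gives this gene a second start 1 base away. Over all 32851 mouse promoter windows of this length, 16.3% hold AGGTCA. The hexamer AGTTCA occurs only in the Cyp3a11 window among the 9 genes with a window, on the other strand as TGAACT at −142, against 14.0% of all windows. The other 6 members with a window, Cyp2c55, Cyp2e1, Cyp2s1, Cyp2ab1, Cyp4b1 and Cyp26b1, hold no AGGTCA. The core letters of HIF-binding sites, ACGTG and GCGTG, were absent from all 3 Cyp3a windows. They occurred in Cyp2e1 (ACGTG on the other strand at −36, next to a TATAAA at −31) and in Cyp2ab1 (GCGTG at −160), against 19.6% and 32.4% of all windows. These cores share CGTG, and no letters were counted for more than 1 of them. A match describes these letters only and is not a measured site. Cyp2u1 and Cyp21a2-ps had no window in the tables used.

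Within the aligned bases, the promoter windows of Cyp3a11 and Cyp3a44 were 79.2% identical, those of Cyp3a11 and Cyp3a25 63.0% and those of Cyp3a44 and Cyp3a25 64.9%. Their coding sequences, from GENCODE M21, were 94.9%, 76.1% and 75.3% identical for the same pairs. Despite this likeness, no window of 150 bases of the longest Cyp3a11 or Cyp3a44 transcript occurs in a transcript of another gene, and 0.702% of such windows of Cyp3a25 do, in Cyp3a59. Within these transcripts, reads of the 3 genes can thus mostly be told apart, although shorter identical stretches remain. For Cyp3a11 the transcript has 2802 bases, against a deposited gene length of 5093, and bases outside the transcript were not compared.

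Cyp3a11 (ENSMUSG00000056035, chr5:145854426-145879964), a main drug- and steroid-oxidizing enzyme of mouse enterocytes and liver, had 192, 354 and 242 normalized counts in the 3 overexpression libraries, against 836, 768 and 975 in the 3 flox libraries. The groups were apart, with 354 and 768 as the nearest libraries. The mean was 263 ± 83.2 in overexpression ileum and 860 ± 105 in flox ileum (SD, n = 3 each), a ratio of 0.306. On the log2 scale the fold change was -1.71, with a standard error of 0.23 (adjusted p = 0.0234, edgeR's quasi-likelihood test, with Benjamini-Hochberg adjustment over 19204 genes). It was the only one of 9 tested P450 genes to pass the threshold of 0.05, and the only lower gene of all 767 tested, or 0.13%, while 21 genes, or 2.74%, passed as higher. Leaving out 1 library at a time ended the call in 5 of 6 cases and kept it only without overexpression replicate 2 (edgeR adjusted p between 0.0195 and 0.176), and adding sex to the model (adjusted p = 0.0668 from edgeR) or using the males alone (adjusted p = 0.700 from edgeR) ended it too, within a range of 9.0e-09 to 0.700 over the alternatives tried. The log2 fold change itself ran from -1.99 to -1.52 over those 6 cases.

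Cyp3a44 (ENSMUSG00000054417, chr5:145773983-145805874), a close relative of Cyp3a11 known as a female-predominant gene of mouse liver, had 128, 249 and 112 normalized counts in overexpression ileum, against 302, 821 and 470 in flox ileum. Its log2 fold change of -1.70 (standard error 0.40) was as large as that of Cyp3a11, and the groups did not overlap, with 249 and 302 as the nearest libraries. The spread was wider, however, with a coefficient of variation of 46.0% over overexpression libraries and 49.96% over flox libraries, against 31.7% and 12.3% for Cyp3a11. It did not pass with edgeR (adjusted p = 0.517) and passed with DESeq2 (adjusted p = 0.00761), which called 13 lower genes, or 1.69% of those tested, Cyp3a11 among them. Over the alternatives tried its adjusted p ran from 0.00389 to 1. The female overexpression library was the lowest of its group, and the female flox library lay between both males.

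Cyp3a25 (ENSMUSG00000029630, chr5:145977194-146009618), the next Cyp3a gene after Cyp3a11 and likewise a drug and steroid oxidase, had 1901, 1891 and 2280.0 normalized counts in overexpression libraries, against 2513, 2246 and 2624 in flox libraries. Overexpression replicate 3 lay above flox replicate 2, so the groups overlapped. Its log2 fold change was -0.28 ± 0.14 (standard error), which did not pass (adjusted p = 1 from edgeR).

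**Figure D1:**
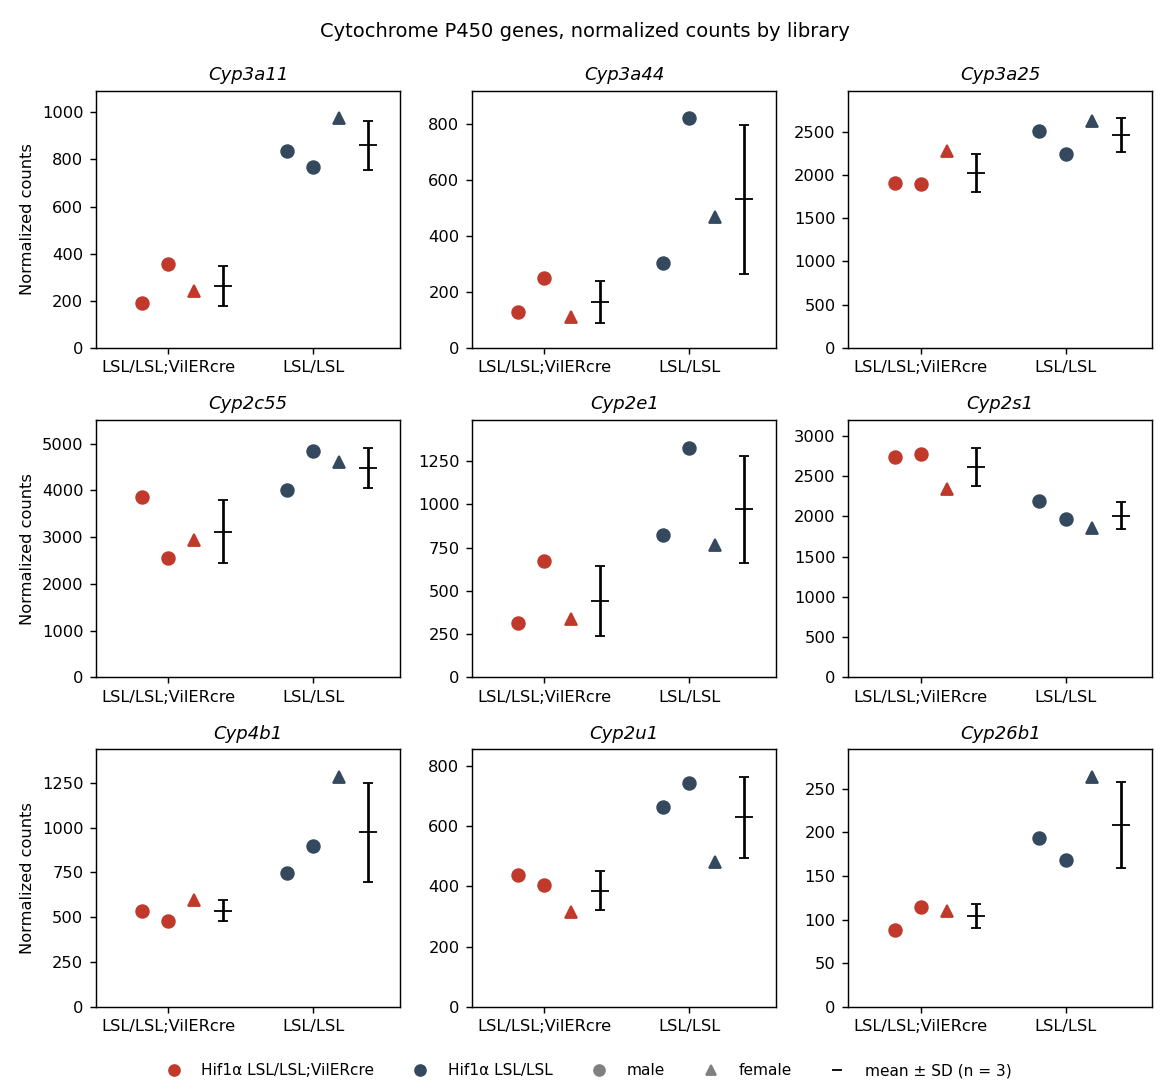
Normalized counts of the 9 tested cytochrome P450 genes, 1 panel a gene, with overexpression (Hif1α LSL/LSL;VilERcre) libraries at the left in red and flox (Hif1α LSL/LSL) libraries at the right in blue; circles are males, triangles females, and black bars the mean ± SD (n = 3). Groups are apart in every panel but that of Cyp3a25, and Cyp2s1 alone lies higher in overexpression ileum.

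The ratio between Cyp3a genes within a library, compared after the values had been seen, does not depend on library scaling. Its size depends on the deposited gene lengths, while its comparison between groups does not. Cyp3a11 stood at 0.0412, 0.0766 and 0.0435 of the FPKM of Cyp3a25 in overexpression libraries, against 0.136, 0.140 and 0.152 in flox libraries. The groups were apart, and the flox libraries lay close together. Cyp3a11 was listed for its difference between these same libraries, which makes such a gap likely in advance, so the ratio is no separate support. Cyp3a44 over Cyp3a25 was 0.0715, 0.140 and 0.0521 in overexpression libraries, against 0.127, 0.388 and 0.190 in flox libraries, which overlapped. Cyp3a44 over Cyp3a11 ranged from 1.198 to 1.82 in overexpression libraries and from 0.937 to 2.78 in flox libraries, with no shift beyond this spread. No exact permutation test of 3 against 3 libraries can give a p below 0.1, so none of these ratios was tested. Summed over the 3 genes, FPKM was 49.99 ± 4.31 in overexpression ileum and 73.7 ± 4.53 in flox ileum (SD, n = 3 each), most of it Cyp3a25. This sum holds 3 of 9 annotated coding Cyp3a genes, selected by p in these same libraries, and is no total for the subfamily.

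**Figure D2:**
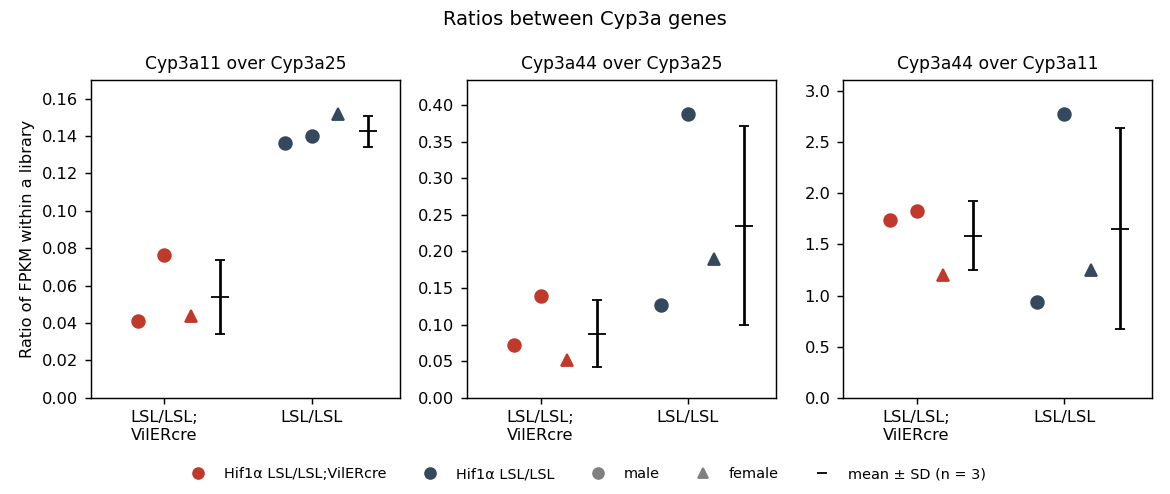
Ratio of FPKM between Cyp3a genes within each library, for Cyp3a11 over Cyp3a25, Cyp3a44 over Cyp3a25 and Cyp3a44 over Cyp3a11; overexpression libraries are at the left in red and flox libraries at the right in blue, circles are males, triangles females, and black bars the mean ± SD (n = 3). The first ratio is 0.0766 or less in overexpression libraries and 0.136 or more in flox libraries, whereas the last overlaps. Selection of Cyp3a11 by p in these same libraries makes the gap in the first likely in advance.

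Among the CYP2 genes with roles in drug and lipid oxidation, Cyp2c55 and Cyp2e1 had lower means in overexpression ileum and Cyp2s1 a higher mean, without passing edgeR. Cyp2c55 (ENSMUSG00000025002, chr19:39007019-39042693), an arachidonic acid-oxidizing enzyme of the mouse gut, had 3859, 2559 and 2927 normalized counts in overexpression libraries, against 4006, 4836 and 4608 in flox libraries. The groups were apart by little, since overexpression replicate 1 lay just below flox replicate 1. This was a log2 fold change of -0.53 ± 0.17 (standard error), which did not pass (edgeR adjusted p = 1).

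Cyp2e1 (ENSMUSG00000025479, chr7:140763739-140774987), which oxidizes ethanol and other small molecules, had 312, 672 and 337 normalized counts in overexpression libraries, against 821, 1328 and 767 in flox libraries. Groups were apart, with replicate 2 the highest library in both. Overexpression lay below flox ileum by a log2 fold change of -1.14 ± 0.31 (standard error; edgeR adjusted p = 0.833, and 0.00429 to 1 over the alternatives tried, the lowest with the replicate number as a block). Cyp3a44 likewise was highest in replicate 2 of both groups, at 0.70 and 0.75 above the group mean on the log2 scale in overexpression and flox ileum, against 0.70 and 0.49 for Cyp2e1. Replicate 2 was the highest library for 5 tested members in overexpression ileum and for 4 in flox ileum, but for no other member in both. The numbers mark no shared litter or batch in the labels, and whether the libraries of replicate 2 have anything in common was not tested. Among 573 other genes that averaged at least 50 normalized counts, Cyp2e1 had the profile closest to that of Cyp3a44 over the 6 libraries (root mean square difference of 0.356 between centered log2 values).

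Cyp2s1 (ENSMUSG00000040703, chr7:25802475-25816913), an epithelial P450 known in humans and mice as a target of the aryl hydrocarbon receptor and described as responsive to hypoxia, was the 1 higher member. It had 2735, 2774 and 2343 normalized counts in overexpression libraries, against 2190.1, 1964 and 1862 in flox libraries. Every overexpression library lay above every flox library, and the spread was among the narrowest of the members, with coefficients of variation of 9.10% and 8.37%. Even so the log2 fold change of 0.38 ± 0.13 (standard error) did not pass (edgeR adjusted p = 1), and it was 0.24 when scaled by DESeq2 size factors over the table. Of its exonic bases, 5.27% lie under exons of the noncoding gene Gm26707 on the other strand, and no source used here says whether the counting was strand-specific.

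The enzymes of fatty acid and retinoic acid oxidation had lower means in overexpression ileum, and none passed edgeR or DESeq2. Cyp4b1 (ENSMUSG00000028713, chr4:115624725-115647723), a fatty acid and xenobiotic hydroxylase, had 532, 479 and 598 normalized counts in overexpression libraries, against 746, 894 and 1282 in flox libraries. The groups were apart, and the spread lay mostly in flox ileum, where the female library was highest. The log2 fold change was -0.86 ± 0.20 (standard error; adjusted p = 0.530 from edgeR and 0.0508 from DESeq2). It ran from -1.02 to -0.61 when 1 library was left out, the smallest without flox replicate 3. Over the alternatives tried the adjusted p ran from 0.0212 to 1. The 0.0212 came from adjusting the edgeR p over the tested genes of the table alone, which ignores their selection by p. Otherwise the lowest was the 0.0508 from DESeq2.

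Cyp2u1 (ENSMUSG00000027983, chr3:131288441-131303227), a hydroxylase of long-chain fatty acids, had 439, 406 and 314 normalized counts in overexpression libraries, against 665, 743 and 482 in flox libraries. The groups were apart by a small gap, and the female library was the lowest in both. On the log2 scale the fold change was -0.71 ± 0.20 (standard error; edgeR adjusted p = 0.948). Exons of the antisense gene 4930534D22Rik lie across 10.5% of its exonic bases, so part of its reads may belong there.

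Cyp26b1 (ENSMUSG00000063415, chr6:84571414-84593908), which breaks down retinoic acid, had 87.9, 114 and 109.6 normalized counts in overexpression libraries, against 193, 168 and 263 in flox libraries. The groups were apart, with the female flox library highest as for Cyp4b1. The ratio of means was 0.499, with a standard error of 0.27 on the log2 scale (edgeR adjusted p = 0.832).

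**Figure D3:**
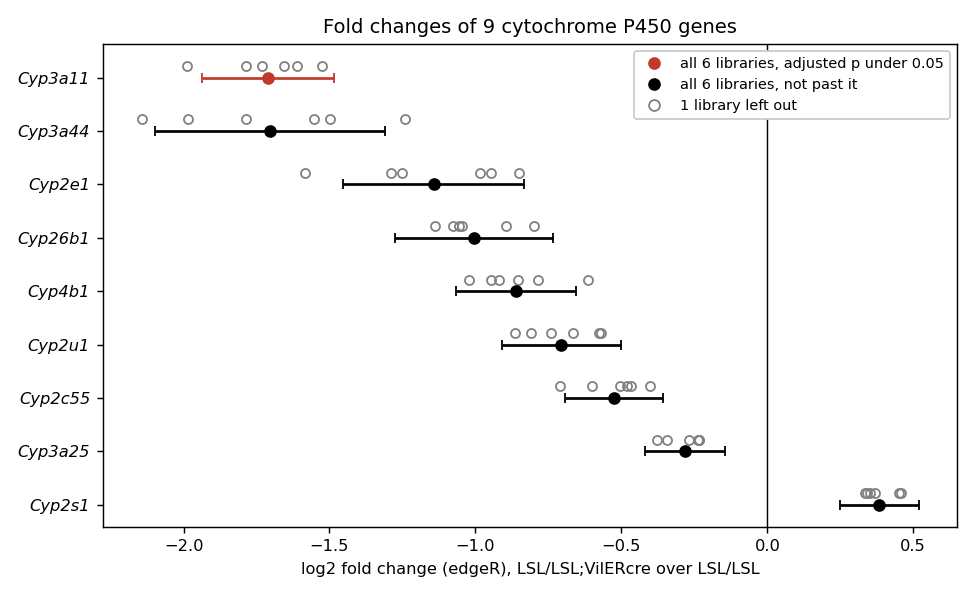
Log2 fold change from edgeR, overexpression over flox ileum, of the 9 tested cytochrome P450 genes, with the standard error as the bar; red marks an adjusted p under 0.05 and open grey circles the 6 fits that each left out 1 library. Values run from -1.71 in Cyp3a11 to 0.38 in Cyp2s1, and no open circle lies on the other side of 0 from its filled circle. Selection of the genes by p in these same libraries makes this likely in advance.

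The last 2 members were barely detected and averaged under 5 normalized counts, so they were not tested. Cyp2ab1 (ENSMUSG00000022818, chr16:20308387-20325404) had 0 counts in all 3 overexpression libraries, against 8, 11 and 0 counts in flox libraries. Taking 3 counts over the group as the limit that a count of 0 allows, the pooled counts of Cyp2ab1 were at least 5.65-fold lower in overexpression ileum. By the 95% exact interval, which also covers the counting error of the flox libraries, this limit was 4.16-fold. Neither limit covers the spread between animals, and the female flox library had no counts either. Cyp21a2-ps (ENSMUSG00000092471, chr17:34719813-34722252), a pseudogene of the adrenal steroid hydroxylase gene, had 0, 0 and 1 counts in overexpression libraries, against 20, 9 and 1 counts in flox libraries. Flox over overexpression gave a ratio of 26.7 (95% exact interval 4.45 to 1091, counting error only), and both females had 1 count. For both genes, the difference lay in the 4 male libraries. Both were listed for their p in these same libraries, so the limits and the ratio lean high and are no separate support.

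As a set, 10 of 11 P450 genes had a lower mean in overexpression ileum, or 90.9%, beside 46.4% of all 923 listed genes. Groups did not overlap for 7 lower members, beside 33.5% of the listed genes, and for 1 higher member, beside 38.6%. Cyp3a25, Cyp2ab1 and Cyp21a2-ps overlapped. The 9 tested members had a median log2 fold change of -0.86, against 0.34 over the 767 tested genes. The 8 lower members had a median of -0.93, against -0.76 over all 352 lower genes tested. At an unadjusted p under 0.05 from edgeR, 8 of 9 members passed, beside 82.9% of the tested genes, and Cyp3a25 did not. Cyp4b1, Cyp26b1, Cyp2c55, Cyp2u1, Cyp2e1 and Cyp3a44 thus had lower means, with no overlap, but no call from edgeR without covariates.

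The order of levels per length differed little between the groups. These levels rest on the deposited gene lengths. For Cyp3a11 and Cyp2s1 the deposited lengths are 5093 and 4938 bases, while their longest annotated transcripts have 2802 and 3161 bases. For Cyp3a44 both are 1962 bases, so the order between genes depends on the length used. Cyp2c55 was the most abundant member, at 70.5 ± 15.05 FPKM in overexpression ileum and 102 ± 10.6 FPKM in flox ileum (SD, n = 3 each), followed by Cyp3a25 at 43.9 ± 4.96 and 53.7 ± 4.16 FPKM. Both stood apart from the next gene in every library of both groups. In overexpression ileum Cyp2s1 came next at 23.9 ± 2.10 FPKM, apart from Cyp4b1 at 10.7 ± 1.23 and Cyp2e1 at 9.21 ± 4.19, which overlapped. In flox ileum Cyp2e1 at 20.5 ± 6.63, Cyp4b1 at 19.7 ± 5.69 and Cyp2s1 at 18.5 ± 1.38 FPKM could not be ordered beyond their spread. Cyp3a44, Cyp2u1 and Cyp3a11 followed at 3.75, 3.32 and 2.33 FPKM in overexpression ileum, each overlapping the next, and at 12.3, 5.46 and 7.67 FPKM in flox ileum, where Cyp3a44 overlapped both Cyp2s1 and Cyp3a11 and the order of Cyp2u1 and Cyp3a11 was the other way round. Cyp26b1 was lowest of the 9 at 0.876 and 1.77 FPKM. Summed over the 10 coding members, FPKM was 169 ± 9.69 in overexpression ileum and 242 ± 20.9 in flox ileum (SD, n = 3 each). The share of Cyp2s1 in this sum was 14.2% ± 1.38 against 7.70% ± 1.25 (SD, n = 3 each), with no overlap between libraries. Only 10 of 100 annotated coding P450 genes are in the sum, each selected by p in these same libraries. Sum and share thus restate the differences of these members and do not measure total P450 RNA.

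**Figure D4:**
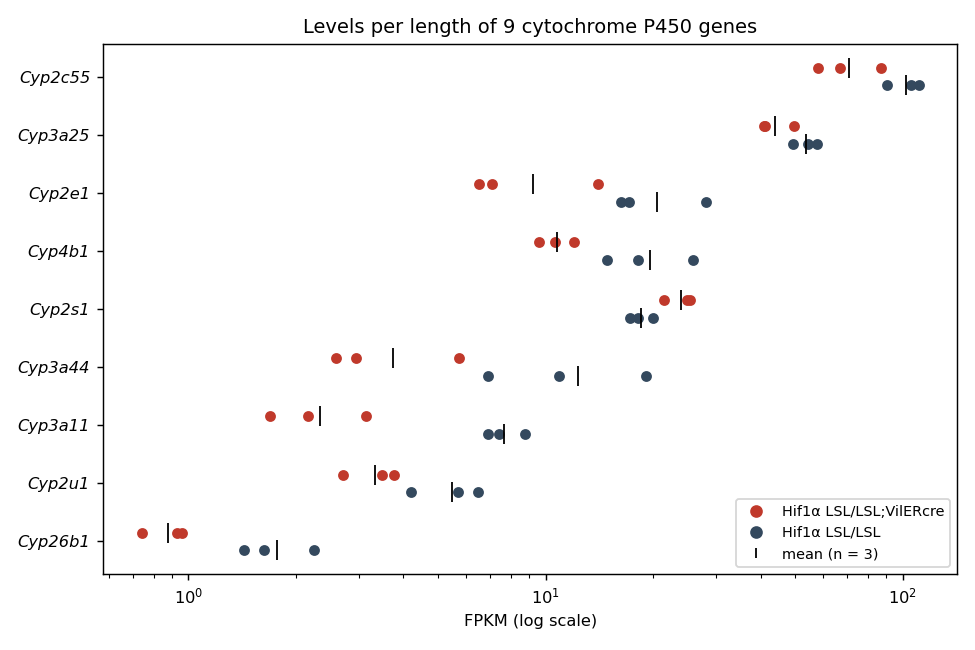
FPKM of the 9 tested cytochrome P450 genes on a log axis, ordered by the flox mean, with overexpression libraries above in red and flox libraries below in blue; black ticks are the means of 3 libraries. By the deposited gene lengths, Cyp2c55 and Cyp3a25 lead in both groups, and Cyp2s1 ranks 3 in overexpression ileum and 5 in flox ileum.

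No difference between sexes in the response of a P450 gene was detectable. With 1 female a group, the interaction of sex and genotype gave an adjusted p of 1 from edgeR for each of the 9 tested members, and its log2 value ran from -0.49 in Cyp3a44 to 0.12 in Cyp3a25. This fit has few residual degrees of freedom, so it cannot show that the sexes respond alike.

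Genes of related pathways were mostly outside the table, as were most genes, since it holds 923 of the 19204 over which p had been adjusted. The absence of a gene or list from the table was therefore not read as a result. Of 320 other genes in 10 lists (nuclear receptors, clock regulators, electron donors, heme metabolism, other phase I and phase II enzymes, transporters, eicosanoid enzymes, PPARα targets and retinoid handling), 27 were in the table, 18 with lower and 9 with higher means in overexpression ileum, beside 46.4% lower over the listed genes. None passed edgeR, beside 22 of all 767 tested genes, and 15 had an unadjusted p under 0.05 from edgeR, beside 82.9% of those tested. Limma-voom called 0, and DESeq2 called 2, Agmo and Alox12b, beside 73 of the 767. Their median log2 fold change was -0.33, against 0.34 over the tested genes. None of the 10 electron donors and partners, such as Por, and none of the 33 PPARα targets was in the table, and of 30 nuclear receptors and regulators only Ppargc1a, a coactivator, was, with a log2 fold change of -0.66 (standard error 0.21).

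Of 54 other phase I enzymes 5 were in the table, 4 of them with lower means. Bche, butyrylcholinesterase, had a log2 fold change of -0.69, Fmo4, a flavin monooxygenase, -0.33, and the monoamine oxidases Maob and Maoa -0.56 and -0.30, while the carboxylesterase Ces1g had 0.97. Of 65 phase II enzymes 3 were, namely Inmt at -1.13, the glucuronosyltransferase Ugt2b34 at -0.29 and the glutathione transferase Gsta1 at 0.62. Of 34 transporters 8 were, 5 with lower and 3 with higher means, among them the efflux pumps Abcc6 at -0.61, Abcc2 at -0.49 and Abcc1 at 0.60. Of 33 eicosanoid enzymes 4 were, with Agmo, which cleaves ether lipids, at -0.76 (standard error 0.17, edgeR adjusted p = 0.452), Hpgd, which inactivates prostaglandins, at -0.46, and Pla2g5 at 0.69. Alox12b, a skin lipoxygenase, had 14.0 to 36.1 normalized counts in overexpression libraries and 0 in each flox library. Heme metabolism had 2 of 15 genes in the table, Alas2 at -1.57 and Tspo at 0.40, both with overlapping groups, and retinoid handling had 1 of 33, the carotenoid-cleaving enzyme Bco2 at 0.64. Dbp, Nr1d1 and Ciart, the 3 of 19 clock regulators in the table, had log2 fold changes of -0.48, -0.43 and -0.50, and whether the time of sampling differed was not tested.

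Ugt2b34 was also the gene with the profile closest to that of Cyp3a25 among 527 named genes outside the P450 family, over 6 libraries (root mean square difference of 0.0508 on the log2 scale). The nearest profile to Cyp3a11 was that of Siglecf, at 0.373, to Cyp3a44 that of Slc36a2, at 0.376, to Cyp2c55 that of Adamtsl5, at 0.0532, and to Cyp4b1 that of Tmem144, at 0.128. Cyp2s1 lay nearest to Pmvk, an enzyme of the mevalonate pathway, at 0.0360. These likenesses rest on 2 groups of 3 libraries and on genes that were all chosen for a difference between them.

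Some markers of cell types were in the table too. The 3 of 24 enterocyte markers in the table, Anpep, Ace and Slc15a1, had log2 fold changes of -0.24, -0.39 and -0.36. They summed to 122636 to 132712 normalized counts in overexpression libraries and 138282 to 168953 in flox libraries. Most of this was Anpep alone, at 111350 to 121630 in overexpression and 127405 to 153611 in flox libraries. For Slc15a1 the groups overlapped. Of 13 B and plasma cell markers 5 were, all with lower means, summing to 78.1 to 151 in overexpression libraries and 156 to 581 in flox libraries. Of 20 hepatocyte markers only Tat was, at 191 to 235 normalized counts in overexpression libraries and 79.98 to 197 in flox libraries. The 11 colon, 18 pancreatic acinar and 9 goblet cell markers had none in the table, and 3 of 11 ileum markers were, with overlapping groups. Lower means were seen for Reg3a (1 of 15 proximal markers), Defa26 (1 of 12 for Paneth cells) and Pou2f3 (1 of 9 for tuft cells). The same held for Nts (1 of 12 for enteroendocrine cells), Lgr5 (1 of 15 for stem and cycling cells) and Dcn (1 of 16 for smooth muscle, fibroblasts and glia). Lck and Klrb1 (2 of 12 T cell markers) and Kdr and Tie1 (2 of 10 endothelial markers) had higher means. No marker of macrophages and dendritic cells was in the table. Of all these only Acta1, 1 of 13 skeletal muscle markers, passed edgeR, at 587 to 950.2 normalized counts in overexpression libraries and 137 to 281 in flox libraries. Their part in the lower P450 levels was not tested.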

How the data were processed

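RNA-seq of polyadenylated ileum RNA was analysed from 3 Hif1α LSL/LSL;VilERcre and 3 Hif1α LSL/LSL mice. The authors removed adapter and low-quality reads, aligned read pairs to GRCm38 with HISAT2 (version 2.0.5 in the submitters' processing notes) and counted them per gene with featureCounts, and the count columns are deposited as whole numbers. The deposited normalized signal is the count divided by a DESeq2 size factor per library, and the deposited FPKM divides counts by gene length and library total. The deposited p-value and adjusted p-value, with log2 fold changes, are the authors' own comparison. The p-values were read only to see how the table was selected and that p had been adjusted over 19204 genes, and the fold changes were not used.

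Counts of the 767 genes averaging 5 or more normalized counts were tested with edgeR's quasi-likelihood test (version 4.0.16, R 4.3.3), scaled by the deposited size factors, 3 libraries against 3 without covariates, with Benjamini-Hochberg adjustment over 19204 genes, the largest p taken to be outside the table. Steps were tested on simulated data. Alternatives were DESeq2 (1.42.0), limma (3.58.1), other scalings and filters, blocking on replicate number, adding sex to the model, the males alone, leave-one-out fits, another multiple-testing base and log2 FPKM with a pseudocount of 0.1 or 1. Named were all P450 genes, the nearest profiles (log2 of the normalized count + 1) and listed members of the pathway lists. Members and lists were chosen with earlier results of these data known. Promoter windows are RefSeq's on GRCm38.p6, and 9 of 11 members matched by symbol.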

Additional observations from a re-analysis of the deposited data

How the results depend on the processing

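Of 153 log2 fold changes (9 tested P450 genes under the 17 alternatives that refitted them), none changed sign. The genes had been selected by their difference between these same libraries, which makes stable signs likely in advance. The number of P450 genes past the threshold, 1 with edgeR, was 2 with DESeq2 (Cyp3a11 and Cyp3a44), 0 with sex as a covariate, 0 in males only, 0 to 1 when each library was left out, and 8 when p was adjusted over the tested genes of the table alone, which ignores their selection by p. It was 3 with a replicate block, namely Cyp3a11, Cyp3a44 and Cyp2e1 (adjusted p = 0.00389 for Cyp3a44 and 0.00429 for Cyp2e1 from edgeR). Same-numbered libraries deviated from their group means together only weakly, with correlations across genes of 0.0648, 0.0441 and 0.0911, although each library correlated best with its own number, so the numbers were not treated as pairs. Over all tested genes, edgeR called 22, against 39 with the block, 73 with DESeq2, 4 to 13 when each library was left out, 1 in males only, 316 when p was adjusted over the table alone, and 10 and 14 with limma on log2(FPKM + 1) and log2(FPKM + 0.1). Cyp3a11 did not pass on FPKM (adjusted p = 0.159 and 0.167 from limma at pseudocounts of 0.1 and 1). TMM and DESeq2 size factors over the table moved the median log2 fold change by -0.12 and -0.14, and 8 tested members were lower with each. Groups did not overlap for 8 members with FPKM too, and for 8 to 10 when a library was left out. Depth limits Cyp2ab1 and Cyp21a2-ps, which held at most 20 counts a library.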
